A study of Mus musculus with 3 samples.

Results

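The natural killer (NK) gene complex of the mouse is a cluster of lectin-like receptor genes on the distal part of chromosome 6. It was read here as every SNP that the deposited counts place between positions 128300000 and 130500000 of chromosome 6 (GRCm38), an interval of 2.2 Mb. The interval held 1454 SNPs in 73 genes, out of 452304 SNPs in 30212 genes for the whole exome, and no position was listed more than once. By annotation 396 of these SNPs lay in coding sequence, 630 in UTRs, 401 in noncoding exons and 27 outside annotated exons. *Tead4*, at the edge of the interval, had 1 of its 14 SNPs inside and no counts there, so it entered no test.

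Genomic DNA of sorted lymphocytes from 3 female recipient mice was sequenced after exome capture, with 1 library per animal. All donors and recipients were C57BL/6 x CAST/EiJ F1 animals (C57BL/6J in the methods). The donors had B6 mothers and CAST fathers, so each donor cell carried 1 complex of either strain and reads over a SNP could be assigned to the maternal B6 or the paternal CAST chromosome. The recipients (Ly5.1) were sublethally irradiated, received hematopoietic stem cells (HSCs) of Ly5.2 donors, and donor-derived cells were sorted as Ly5.2+ and Ly5.1-. Donors were juvenile and recipients juvenile to young adult, with no age given for a single animal. Host cells that outlive sublethal irradiation carry chromosomes of the same strains, so AI cannot tell them from donor cells. E6.2 was a polyclonal animal that received 50 HSCs of donor animal 6, and 58000 B220+IgM+ B cells were sorted from it. The labels place these B cells in the spleen and the methods in the bone marrow. E6.43 was a monoclonal animal that received 1 HSC of the same donor, with 250000 CD4+CD8- thymic T cells sorted. E15.10 was a monoclonal animal that received 1 HSC of donor animal 15, with 177000 CD4+CD8- thymic T cells sorted. Each monoclonal library is thus 1 clone of 1 animal, the only polyclonal library is also the only B cell library, and clonality and cell type cannot be told apart. The libraries hold DNA, so the sorted cell types could not be checked by marker genes.

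Receptors of the NK gene complex are type II membrane proteins with a C-type lectin-like domain. The Ly49 receptors, encoded by the *Klra* genes, bind MHC class I molecules and either inhibit or activate NK cells, and the number and identity of *Klra* genes differ among inbred strains. *Klrd1* (CD94) pairs with the NKG2 proteins of the *Klrc* genes to recognise nonclassical MHC class I, whereas *Klrk1* encodes the activating receptor NKG2D and *Klre1* pairs with *Klri1* or *Klri2*. The *Klrb1* (NKR-P1) receptors and their *Clec2* ligands are encoded side by side in the same stretch. Nearby lie *Cd69*, an early activation antigen of lymphocytes, and lectins of myeloid cells and platelets such as *Clec7a* (Dectin-1), a receptor for fungal beta-glucan. Members of these families arose by duplication and are similar in sequence.

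The measurement was the allelic imbalance (AI), defined as B6 counts over B6 plus CAST counts. AI is 0.5 where both chromosomes are counted equally, 1 where only B6 is counted and 0 where only CAST is counted. AI under 0.25 or over 0.75 is called here the loss of heterozygosity (LOH) range, after the limits that the study used to exclude genes on DNA, and AI of 0.4 to 0.6 is called balanced.

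Sequences are shown first for short stretches of coding exons that carried almost no CAST counts, as they are the clearest departure from 0.5 in the complex. From each NK receptor family that had such stretches, 1 was chosen after its values were seen. All are the + strand of the GRCm38.p6 reference, that is B6 sequence, and the CAST base of a SNP was not read here. In the first sequence of each pair, capitals mark the positions listed as SNPs. The second sequence of each pair is the most similar place elsewhere in the interval, compared without gaps. The rest of the genome was not searched for these stretches. Capitals in the second sequence mark the bases that differ from the first. Exon 5 of *Clec2i* (chr6:128895328-128895411) is shown with its match in *Clec2d* (chr6:129184779-129184862), exon 6 of *Klri1* (chr6:129697334-129697408) with its match in *Klri2* (chr6:129732176-129732250), and exon 4 of *Klra8* (chr6:130125057-130125192) with its match in the pseudogene *Klra14-ps* (chr6:130157646-130157781).
Clec2i: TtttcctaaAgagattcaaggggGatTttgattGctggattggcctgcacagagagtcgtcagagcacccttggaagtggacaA
Clec2d: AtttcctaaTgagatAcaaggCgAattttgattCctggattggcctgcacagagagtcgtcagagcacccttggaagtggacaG
Klri1: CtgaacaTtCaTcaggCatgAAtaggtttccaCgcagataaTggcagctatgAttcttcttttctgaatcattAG
Klri2: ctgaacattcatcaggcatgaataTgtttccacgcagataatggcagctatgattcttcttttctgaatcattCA
Klra8: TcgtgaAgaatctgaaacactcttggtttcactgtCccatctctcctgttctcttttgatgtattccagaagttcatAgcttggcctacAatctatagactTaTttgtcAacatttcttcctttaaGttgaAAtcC
Klra14-ps: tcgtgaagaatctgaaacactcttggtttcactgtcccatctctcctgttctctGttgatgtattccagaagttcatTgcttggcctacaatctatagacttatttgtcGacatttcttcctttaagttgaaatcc

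*Clec2i* encodes a ligand of the NKR-P1 family. Its stretch of 84 bp held 6 SNPs with a median of 91.5 B6 counts and 1 CAST count for E6.2, 98 and 0 for E6.43, and 27 and 0 for E15.10. AI over the stretch was 0.989, 0.998 and 1. Its match in *Clec2d*, which encodes the ligand of *Klrb1b*, shared 77 of 84 bases, and 5 of the 7 differing bases lay at SNP positions of *Clec2i*.

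The stretch of *Klri1*, 75 bp with 12 SNPs, had no CAST count in any library. The median B6 counts per SNP were 27, 20 and 5 for E6.2, E6.43 and E15.10, respectively. *Klri2* differed from it at 3 bases, 2 of them at SNP positions. In *Klra8*, which encodes Ly49H, an activating receptor of B6 mice, 136 bp held 12 SNPs with median B6 counts of 75.5, 32.5 and 8. The highest CAST count at any of these SNPs was 3 in E6.2 and 0 in the other libraries, and AI was 0.99, 1 and 1. *Klra14-ps* differed from this stretch at 3 of 136 bases, 2 of them at SNP positions. In all 3 stretches the 3 libraries gave the same picture, and read pairs that span several SNPs are counted at each of them.

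The contrast within a single gene is shown by *Klra10*, with the most counted SNP of the Ly49 family that was balanced in all libraries and the most counted that was over 0.75 in all libraries. The 101 bases around each SNP (chr6:130272659-130272759 in exon 5 and chr6:130281809-130281909 in exon 1) have SNP positions in capitals, with the named SNP in the middle. Each window is named by the exon of its SNP, is not cut where the exon meets an intron, and can include intron bases.
Klra10 exon 5: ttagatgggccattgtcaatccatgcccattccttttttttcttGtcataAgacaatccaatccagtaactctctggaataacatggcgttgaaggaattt
Klra10 exon 1: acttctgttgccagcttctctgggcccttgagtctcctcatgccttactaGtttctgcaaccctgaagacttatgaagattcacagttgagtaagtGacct

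The exon 5 SNP had 101 B6 and 80 CAST counts for E6.2, 68 and 61 for E6.43, and 7 and 10 for E15.10. The exon 1 SNP had 182 B6 and 14 CAST counts for E6.2, 67 and 4 for E6.43, and 20 and 0 for E15.10. Thus the same gene held a SNP near 0.5 and a SNP near 1 in every library. Both windows have a near copy in *Klra9* (Ly49I), which matched 99 and 98 of the 101 bases.

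The same 2 classes are shown for the other families, again in windows that can include intron bases. In *Klrb1b*, an inhibitory receptor, the balanced SNP lay in exon 4 (chr6:128818931-128819031), and in *Klrb1a*, an activating receptor of the same family, the SNP over 0.75 lay in exon 2 (chr6:128620206-128620306). In *Klrc2* (NKG2C) the SNP over 0.75 lay in exon 1 (chr6:129660503-129660556), and the sequence is cut at the end of the coding part of the exon. In *Clec12b*, a lectin with no place of similar sequence found elsewhere, the balanced SNP lay in exon 5 (chr6:129379512-129379612).
Klrb1b exon 4: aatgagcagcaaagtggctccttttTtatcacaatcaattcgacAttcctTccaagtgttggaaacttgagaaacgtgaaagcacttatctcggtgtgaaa
Klrb1a exon 2: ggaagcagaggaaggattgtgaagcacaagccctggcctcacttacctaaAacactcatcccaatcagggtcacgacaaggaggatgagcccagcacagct
Klrc2 exon 1: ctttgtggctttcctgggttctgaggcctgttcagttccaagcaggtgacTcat
Clec12b exon 5: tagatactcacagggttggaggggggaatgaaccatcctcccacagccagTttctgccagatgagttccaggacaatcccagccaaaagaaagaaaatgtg

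The *Klrb1b* SNP had 96 B6 and 104 CAST counts for E6.2, 61 and 79 for E6.43, and 39 and 42 for E15.10. The *Klrb1a* SNP had 147 B6 and 8 CAST counts, 110 and 4, and 44 and 3 in the same order. The window of *Klrb1a* matched 98 of 101 bases of the pseudogene *Klrb1-ps1*, and that of *Klrb1b* matched 94 bases of *Klrb1a*. The *Klrc2* SNP had 142 B6 and 26 CAST counts for E6.2, 67 and 17 for E6.43, and 25 and 0 for E15.10, and the 101 bases around it were identical in *Klrc3* (NKG2E). The *Clec12b* SNP had 71 and 62, 47 and 40, and 18 and 17. In each library the SNPs of *Klrb1b* and *Clec12b* lay near 0.5 and those of *Klrb1a* and *Klrc2* near or above 0.8. No SNP of the 3 NK receptor families or of the myeloid lectins was under 0.25 in all 3 libraries, and none of the myeloid lectins was over 0.75 in all 3.

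The first question was whether both chromosomes of the complex were present in equal amounts in each library. The complex had 60681 allelic counts in the E6.2 library, 37655 in that of E6.43 and 17995 in that of E15.10, and AI over all of them was 0.61, 0.603 and 0.579. Over all autosomal SNPs AI was 0.541 in each library and thus lower than over the complex. Since a read pair can be counted at several SNPs, AI was also computed at SNPs at least 300 bp apart, chosen by coverage. It was then 0.568 for E6.2 (95% Wilson interval 0.562 to 0.574, 27100 counts), 0.562 for E6.43 (0.555 to 0.57, 16923 counts) and 0.559 for E15.10 (0.548 to 0.57, 8289 counts). These intervals overlapped among libraries, and they cover counting error only. Both chromosomes of the complex were thus counted in each library, with more B6 than CAST counts.

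In each library the share of balanced genes was smaller in the complex than over the autosomes, and the share of genes over 0.6 was larger. With at least 10 counts, 64 genes were measured in the E6.2 library, 63 in that of E6.43 and 61 in that of E15.10. Of these 41, 34 and 33 were balanced, against 78.8%, 75.1% and 72.8% of autosomal genes. Those over 0.6 numbered 21, 27 and 22, against 14.9%, 17.9% and 20.2%, and those under 0.4 numbered 2, 2 and 6. These are descriptions, with no test. The plot of AI by gene shows these values along the chromosome.

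**Figure D1:**
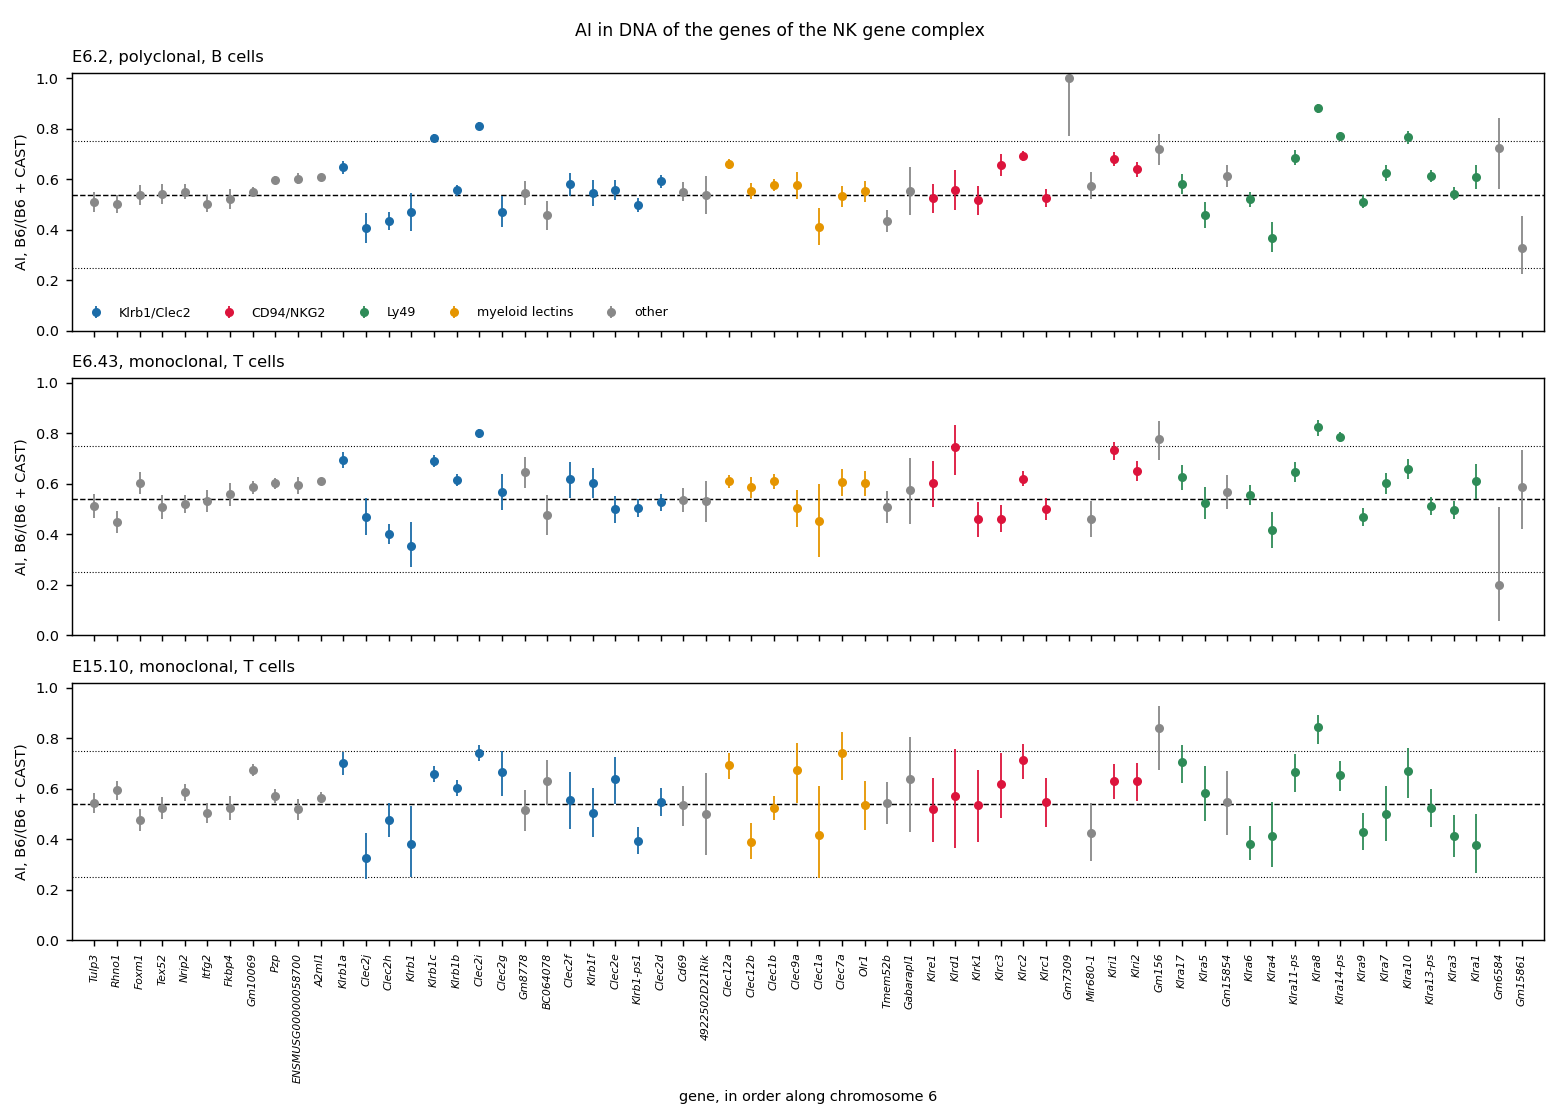
AI (B6 counts over all allelic counts, vertical axis) of each gene of the complex with at least 10 counts, in order along chromosome 6, for the 3 libraries from top to bottom. Points are coloured by family, bars are 95% Wilson intervals of all SNP counts of the gene (too narrow where SNPs share reads), and most points lie between 0.4 and 0.75 with *Klra8*, *Clec2i* and *Klra14-ps* the highest of the well covered genes in E6.2 and E6.43.

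In the *Klrb1*/*Clec2* family of receptors and ligands (13 genes, 278 SNPs), *Clec2i* had the highest AI. It was 0.81 of 2317 counts for E6.2, 0.8 of 1783 for E6.43 and 0.742 of 682 for E15.10. *Klrb1c*, which encodes the NK1.1 antigen of B6 mice, had an AI of 0.765 of 2559 counts, 0.691 of 1495 and 0.658 of 906. *Klrb1a* followed with 0.647 of 1175, 0.695 of 829 and 0.701 of 375. These 3 genes were above 0.6 in every library.

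At the other end of this family, *Clec2j* had an AI of 0.407 of 258 counts for E6.2, 0.469 of 175 for E6.43 and 0.327 of 101 for E15.10. *Clec2h* had 0.436 of 753, 0.401 of 573 and 0.474 of 213. *Klrb1* had 0.47 of 168, 0.355 of 110 and 0.381 of 42. Summed over their SNPs, these 3 members leaned to CAST in each library. *Clec2j* and *Klrb1* held 2 SNPs each. The less covered SNP had 0.6, 0.667 and 0.538 in *Clec2j* and 0.627, 0.5625 and 0.429 in *Klrb1*, so the lean rests mostly on the other SNP. The inhibitory receptor *Klrb1b* had 0.555, 0.616 and 0.603, its ligand *Clec2d* 0.593, 0.527 and 0.548, the receptor *Klrb1f* 0.546, 0.605 and 0.505, and *Clec2g* 0.472, 0.57 and 0.667. *Clec2e* had 0.558, 0.5 and 0.637, *Clec2f* 0.58, 0.618 and 0.556, and the pseudogene *Klrb1-ps1* 0.498, 0.504 and 0.393. At SNPs at least 300 bp apart the whole family had 0.557, 0.55 and 0.558.

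The CD94/NKG2 family (8 genes, 189 SNPs) had no gene in the LOH range. *Klrc2*, which encodes the activating NKG2C, had an AI of 0.693 of 1914 counts for E6.2, 0.62 of 1009 for E6.43 and 0.712 of 163 for E15.10. *Klri1* had 0.681 of 1008, 0.733 of 610 and 0.63 of 184, and *Klri2* had 0.639 of 893, 0.652 of 592 and 0.631 of 157. These 3 were above 0.6 in every library. By contrast *Klrc1*, which encodes the inhibitory NKG2A, had 0.525, 0.5 and 0.545, and *Klrk1* (NKG2D) had 0.516, 0.46 and 0.535. *Klrc3* had 0.658, 0.462 and 0.62, *Klre1* 0.525, 0.602 and 0.518, and *Klrd1* (CD94) 0.559 of 152, 0.747 of 71 and 0.571 of 21. The family had an AI of 0.599, 0.568 and 0.596 at SNPs at least 300 bp apart.

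The Ly49 family (13 genes, 178 SNPs) had the widest range of the receptor families in E6.2. *Klra8* reached 0.882 of 1267 counts for E6.2, 0.824 of 575 for E6.43 and 0.844 of 154 for E15.10, whereas *Klra4* (Ly49D), another activating receptor, had 0.368 of 258, 0.416 of 173 and 0.412 of 51. *Klra14-ps* had 0.77 of 2225, 0.786 of 1523 and 0.653 of 236, and *Klra10* (Ly49J) had 0.766 of 960, 0.66 of 512 and 0.671 of 82. *Klra11-ps* had 0.686, 0.647 and 0.667. Summed over their SNPs, the 5 genes thus kept their side of 0.5 in all libraries. *Klra4* had 2 SNPs with at least 20 counts in E6.2 and in E6.43, on either side of 0.5. They had 0.325 and 0.636 in E6.2 and 0.37 and 0.5455 in E6.43. The lean of *Klra4* to CAST rests mostly on the SNP at 130065200. This SNP had 68 B6 and 141 CAST counts for E6.2, 51 and 87 for E6.43, and 14 and 30 for E15.10.

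Other Ly49 genes lay nearer to 0.5. *Klra3* (Ly49C) had 0.542, 0.497 and 0.411, *Klra9* (Ly49I) 0.511, 0.469 and 0.429, and *Klra5* (Ly49E) 0.458, 0.525 and 0.584. *Klra7* (Ly49G) had 0.626, 0.602 and 0.5, *Klra1* (Ly49A) 0.609, 0.613 and 0.375 of 64 counts, and *Klra6* (Ly49F) 0.52, 0.557 and 0.382. *Klra17* (Ly49Q), a receptor of plasmacytoid dendritic cells, had 0.582, 0.627 and 0.704, and *Klra13-ps* 0.613, 0.512 and 0.525. At SNPs at least 300 bp apart the family had 0.589 for E6.2, 0.561 for E6.43 and 0.533 of 830 counts for E15.10.

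The 7 myeloid and platelet lectins (287 SNPs) had no gene in the LOH range. *Clec12a*, an inhibitory receptor, had 0.661 of 1987 counts, 0.611 of 1287 and 0.693 of 303, the highest of this group in E6.2. *Clec1b*, the platelet receptor CLEC-2, had 0.577, 0.612 and 0.522, *Olr1*, a receptor of oxidised LDL, 0.553, 0.603 and 0.536, and *Clec9a*, a receptor of dendritic cells for dead cells, 0.576, 0.503 and 0.672 of 58 counts. *Clec7a* had 0.532, 0.606 and 0.74 of 77, *Clec12b* 0.554, 0.586 and 0.39 of 182, and *Clec1a* 0.411, 0.452 and 0.417 of 24. The values of E15.10 rest on few counts. *Cd69* had 0.551 of 624 counts, 0.537 of 436 and 0.533 of 150.

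The remaining genes of the interval include *A2ml1* and *Pzp*, of the alpha-2-macroglobulin family of protease inhibitors, which had the most counts summed over the 3 libraries. *A2ml1* had an AI of 0.61 of 5900 counts for E6.2, 0.61 of 3951 for E6.43 and 0.564 of 2157 for E15.10, and *Pzp* had 0.597 of 3448, 0.602 of 2065 and 0.57 of 1313. *Gm10069* had 0.549 of 2367, 0.586 of 1504 and 0.674 of 1353. SNPs listed under ENSMUSG00000058700, a gene that the annotation places elsewhere on the chromosome, had 0.603 of 1736, 0.594 of 894 and 0.517 of 549. *Gm156*, a gene of the interval with few counts, had 0.721 of 208, 0.78 of 109 and 0.839 of 31.

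A microRNA gene, *Mir680-1*, lies in the same stretch as *Klrc2* and *Klri1* and was named after its values were seen. It held 4 SNPs, of which the first lies within the mature sequence (chr6:129691541-129691561, + strand, from RefSeq), shown with its seed, bases 2 to 8, in capitals.
mmu-miR-680: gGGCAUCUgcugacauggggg

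*Mir680-1* had an AI of 0.575 of 320 counts for E6.2, 0.461 of 191 for E6.43 and 0.424 of 66 for E15.10. The SNP in the mature sequence had 43 B6 and 29 CAST counts, 15 and 24, and 6 and 9 in the same order. Both strains were thus counted at this SNP in every library. The window around each SNP of *Mir680-1* had a near copy on another chromosome, with up to 99 matching bases on chromosome 7 and 98 on chromosome 10. Whether all these counts came from *Mir680-1* itself was not tested.

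The study excluded genes in the LOH range, and this range held few genes of the complex. In E6.2 it held 6 of 64 genes, all over 0.75, against 5.32% of all autosomal genes in the range and 3% over 0.75. They were *Klra8*, *Clec2i*, *Klra14-ps*, *Klra10*, *Klrb1c* and *Gm7309*, the last with 13 counts, all B6. In E6.43 it held 5 of 63 genes against 5.56%, with *Klra8*, *Clec2i*, *Klra14-ps* and *Gm156* over 0.75 against 3.08%, and *Gm6584* at 0.2 of 10 counts. In E15.10 it held *Klra8* and *Gm156*, 2 of 61 genes, all over 0.75, against 5.24% and 3.6%. The share of genes was somewhat above the autosomal share in E6.2 and E6.43 and below it in E15.10. *Klra8* was the only gene over 0.75 in all 3 libraries.

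These gene values depended on how the SNPs were summed. At SNPs at least 300 bp apart, *Klra8* had an AI of 0.664 of 420 counts for E6.2 (95% Wilson interval 0.618 to 0.708), 0.551 of 225 for E6.43 (0.486 to 0.615) and 0.652 of 69 for E15.10 (0.535 to 0.754). *Clec2i* had 0.76 of 313 (0.71 to 0.804), 0.724 of 257 (0.666 to 0.775) and 0.703 of 91 (0.603 to 0.787). *Klrb1c* had 0.771 of 538, 0.726 of 306 and 0.669 of 181, *Klra14-ps* 0.749 of 342, 0.73 of 237 and 0.632 of 38, and *Klra10* 0.723 of 430, 0.591 of 257 and 0.622 of 45. *Klra8*, the highest gene with at least 90 counts when all SNPs were summed, was then between 0.55 and 0.66, and 12 of its SNPs lie in the stretch shown above. The SNPs 300 bp apart were chosen by coverage. In E6.2 SNPs of the complex over 0.9 had a median of 55 counts, against 94 at balanced SNPs. This choice can thus pass over SNPs that lack CAST counts, beyond avoiding repeated counts of a read pair. The genes in the LOH range were then 2 in the E6.2 library, 0 in that of E6.43 and 1 in that of E15.10.

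The imbalance was clearer for single SNPs than for genes. Among SNPs with at least 20 counts, 131 of 611 for E6.2 were in the LOH range, 109 of 547 for E6.43 and 38 of 304 for E15.10, or 21.4%, 19.9% and 12.5%. The autosomal shares were 6.36%, 6.84% and 5.77%. Nearly all of these SNPs leaned to B6, with 126, 106 and 35 over 0.75 against autosomal shares of 4.5%, 4.93% and 4.69%, and 5, 3 and 3 under 0.25. SNPs with B6 counts only numbered 36, 36 and 14 of the 611, 547 and 304, against autosomal shares of 0.5536%, 0.5185% and 0.4033%. SNPs with CAST counts only were 0 in each library. Autosomal shares of SNPs under 0.25 or with CAST counts only are not given here. SNPs of 1 gene share read pairs, so these are counts of SNPs and not of independent measurements.

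**Figure D2:**
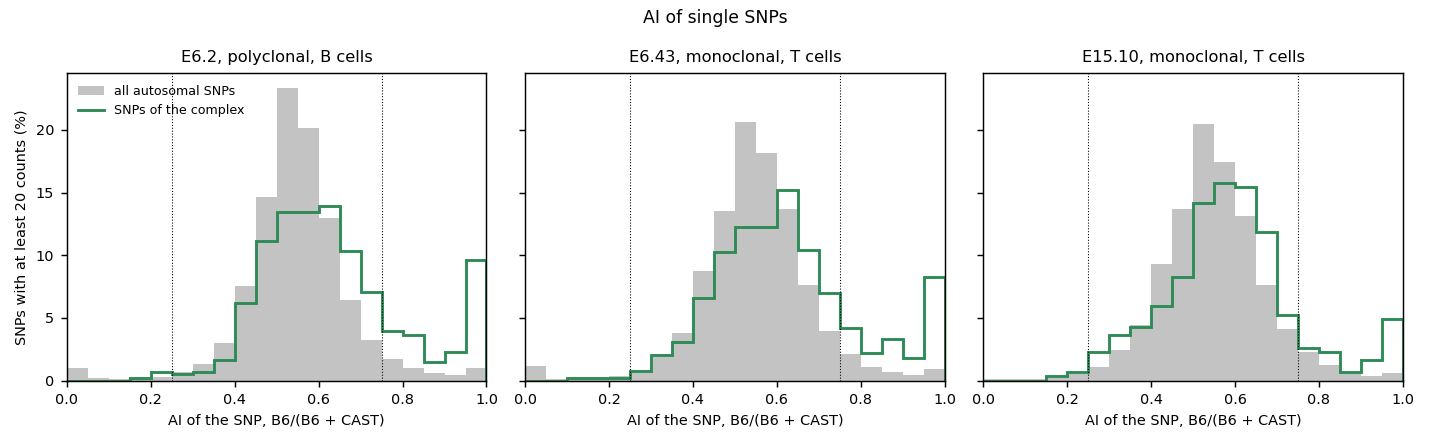
Percent of SNPs with at least 20 counts (vertical axis) by AI of the SNP (horizontal axis), for the 3 libraries, with SNPs of the complex as an outline and all autosomal SNPs as a filled area. Dotted lines mark AI of 0.25 and 0.75, and the complex has a peak in the last bin, 0.95 to 1, with 9.66% of SNPs in the E6.2 library, 8.23% in that of E6.43 and 4.93% in that of E15.10, against 1.03%, 0.915% and 0.641% of autosomal SNPs.

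The SNPs over 0.75 were found in the receptor families above all. In E6.2 they were 42 of 132 in the *Klrb1*/*Clec2* family, 28 of 73 in the CD94/NKG2 family and 39 of 131 in the Ly49 family, but 4 of 66 in the myeloid lectins and 13 of 209 in the other genes. In E6.43 they were 34 of 120, 22 of 63, 39 of 119, 0 of 57 and 11 of 188 in the same order. In E15.10 they were 21 of 91, 2 of 8, 3 of 22, 0 of 17 and 9 of 166, so that the CD94/NKG2 and Ly49 families were hardly measured there at this depth.

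The same SNPs tended to be high in each library. Of the 300 SNPs with at least 20 counts in all 3 libraries, 23 were over 0.75 in all of them (7.67%), 51 in at least 1, none was under 0.25 in all, and 55 were balanced in all (18.3%). Of 138659 autosomal SNPs 1.51% were over 0.75 in all and 35.8% balanced in all. Over the 300 SNPs Pearson's r between AI of E6.43 and E6.2 was 0.75, between E15.10 and E6.2 0.633, and between E15.10 and E6.43 0.664. These values describe the likeness of the libraries, as the SNPs of a gene share reads, positions and capture probes. In the *Klrb1*/*Clec2* family 17 of 91 such SNPs were over 0.75 in all libraries, and in the other genes 3 of 162.

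**Figure D3:**
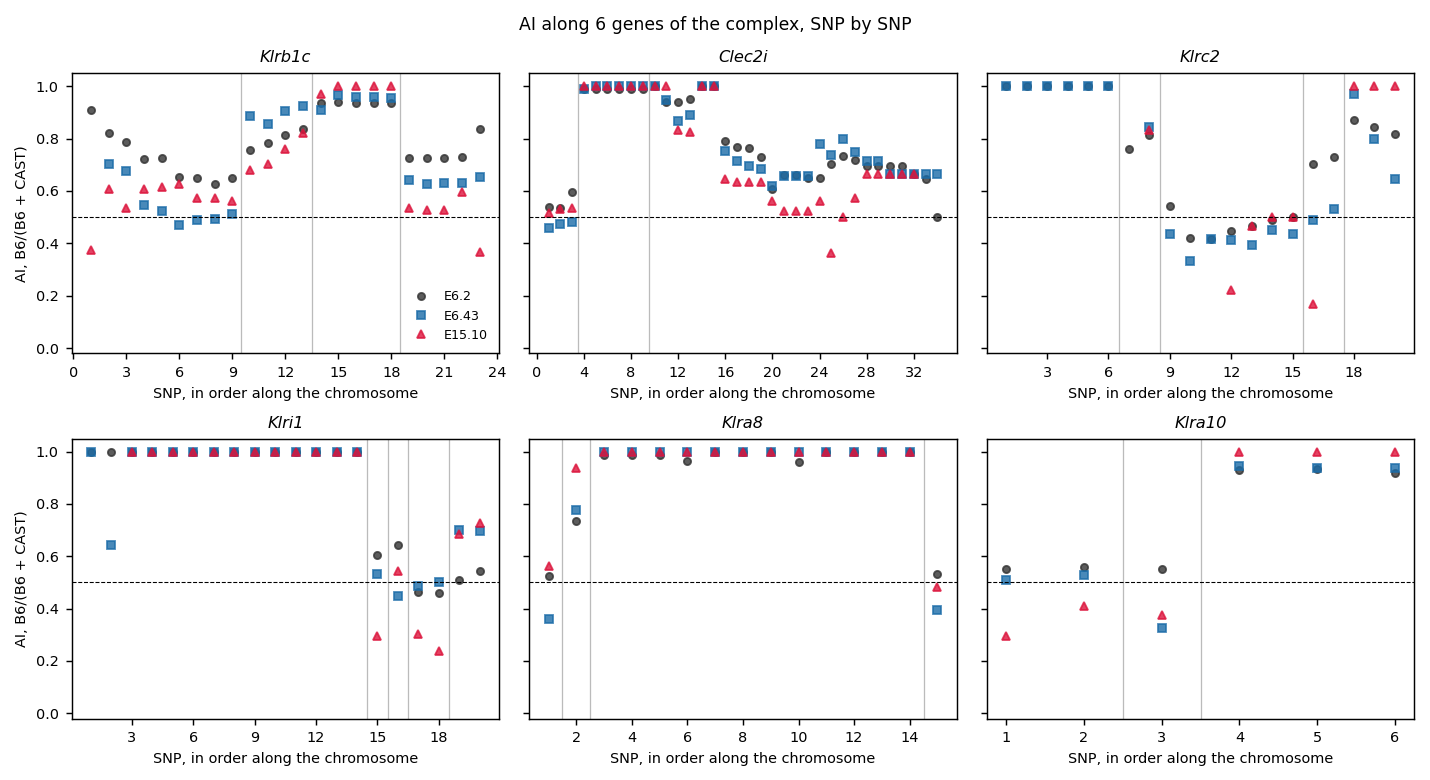
AI of each SNP (vertical axis) in order along the chromosome (horizontal axis, number of the SNP) for 6 genes of the complex, with the 3 libraries in different colours and only SNPs with at least 5 counts. The dashed line marks 0.5 and grey lines mark gaps of over 150 bp between SNPs, and within *Klra8* and *Klri1* runs of neighbouring SNPs at or near 1 stand beside SNPs below 0.75 in each library.

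High AI went with dense SNPs. For each SNP the number of other SNPs within 75 bp on either side was counted, a measure added after the data were seen. In E6.2 the share of SNPs of the complex over 0.75 was 8.18% without another SNP within this distance, 14.5% with 1 or 2, 32.2% with 3 to 5 and 46.3% with 6 or more. In E6.43 the shares were 8.45%, 11.1%, 24.3% and 59.7%, and in E15.10 9.41%, 7.43%, 21.7% and 27.3%, the last of 11 SNPs. The autosomal shares rose too, from 2.02% to 21.3% for E6.2, from 2.32% to 21.1% for E6.43 and from 2.66% to 19.2% for E15.10. At each density and in each library the share in the complex was above that of the autosomes.

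**Figure D4:**
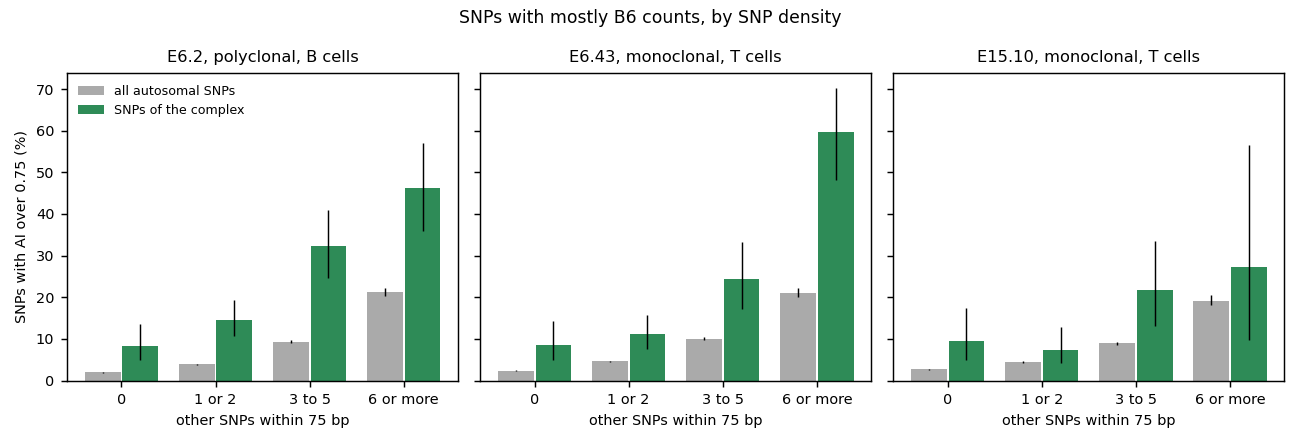
Percent of SNPs with at least 20 counts that had an AI over 0.75 (vertical axis) by the number of other SNPs within 75 bp (horizontal axis), for SNPs of the complex and all autosomal SNPs in the 3 libraries. Bars are shares with 95% Wilson intervals that treat SNPs as independent and are therefore too narrow, and in E6.2 the complex goes from 8.18% to 46.3% and the autosomes from 2.02% to 21.3%.

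SNPs over 0.9 in the complex had a median of 5 other SNPs within 75 bp in the E6.2 library, 5 in that of E6.43 and 4 in that of E15.10, whereas balanced SNPs had a median of 1 in each library. In E6.2 the median was 49 B6 and 46 CAST counts at balanced SNPs, 60 and 28 at SNPs of 0.6 to 0.75, 64 and 15 at SNPs of 0.75 to 0.9, and 50 and 1 at SNPs over 0.9, a split that the classes of AI themselves fix in part. Whether the alignment of reads that carry many CAST bases had a part in the values at dense SNPs was not tested.

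The receptor families also have near copies of their own sequence. The 101 bases around each SNP were compared with the whole reference. Another place with at least 95 matching bases was found for 343 of the 1454 SNPs, and for 309 of these the best such place was in the complex itself. For 36 the copy was identical. The share of such SNPs was 66.9% in the Ly49 family, 59.8% in the CD94/NKG2 family, 24.5% in the *Klrb1*/*Clec2* family, 0.697% in the myeloid lectins and 7.85% in the other genes. In E6.2, 70 of 209 SNPs with such a place were over 0.75, and 56 of 402 others. In E6.43 these were 65 of 193 and 41 of 354, and in E15.10 9 of 72 and 26 of 232. In the *Klrb1*/*Clec2* family the order was the other way round, with 11 of 44 SNPs with such a place and 31 of 88 others over 0.75 in E6.2.

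For some stretches high in B6, the near copy elsewhere held a SNP high in CAST. The copies were examined where the best covered SNP of a stretch had an AI over 0.9 in E6.2 and the similar place held a listed SNP with at least 20 counts, which was the case for 9 stretches. At each copy the best covered SNP was read, which need not lie at the base that matches the SNP of the stretch. At 3 of the 9 copies AI was under 0.4, against 2 of the copies of 25 stretches that were balanced in E6.2. The *Clec2i* SNP in the stretch shown, at position 128895361, had 98 B6 counts and 1 CAST count for E6.2, 98 and 0 for E6.43, and 28 and 0 for E15.10. The SNP in its *Clec2d* copy, at 129184845, had 120 and 217, 57 and 153, and 22 and 48. Summed over both SNPs, AI of this pair was 0.5, 0.503 and 0.51. That *Clec2d* SNP was also the copy of a *Clec2f* stretch with an AI of 0.541 in E6.2. Matching bases were 95 for *Clec2f* and 94 for *Clec2i*. The *Clec2f* pair together had 0.415, 0.322 and 0.402, so the sum depends on the pairing.

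The window of the *Klra10* SNP of exon 1 shown above had its copy in *Klra9*. The best covered SNP there, at 130191284, had 137 B6 and 267 CAST counts for E6.2, 48 and 144 for E6.43, and 9 and 40 for E15.10. This pair of SNPs together had 0.532, 0.437 and 0.42. The best copy of that *Klra9* SNP's own window was in *Klra3*, and that pairing had 0.392, 0.332 and 0.224. The window of the *Klrb1a* SNP of exon 2 shown above had its copy in *Klrb1-ps1*. The best covered SNP there, at 129119844, had 177 and 278, 97 and 137, and 45 and 71, and the pair together had 0.531, 0.595 and 0.546. In the *Klra10* and *Klrb1a* pairs the SNPs again lay at different bases of the match. In the 3 pairs of *Clec2i*, *Klra10* and *Klrb1a* a SNP with an excess of B6 counts thus stood beside a SNP with an excess of CAST counts in every library. This holds for these SNPs and not for whole genes. Summed over all its SNPs *Clec2d* had 0.593, 0.527 and 0.548, *Klra9* 0.511, 0.469 and 0.429, and *Klrb1-ps1* 0.498, 0.504 and 0.393.

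The other 6 copies were not on the CAST side of 0.4 in E6.2. AI was 0.491 in *Klri2* for *Klri1*, 0.744 in *Klra14-ps* for *Klra8*, 0.534 in *Klra8* for *Klra11-ps*, 0.545 in *Klra7* for *Klra13-ps*, 0.6 in *Clec2j* for *Clec2d*, and 0.59 in *Klrb1a* for *Klrb1c*. Summed over both SNPs, AI of these 6 pairs was 0.663, 0.865, 0.681, 0.796, 0.808 and 0.729 in the same order, so these pairs stayed on the B6 side, and the median over all 9 pairs was 0.681. Over the 9 copies the median AI was 0.534 in E6.2, against 0.592 at the copies of 25 stretches that were balanced. Whether reads of CAST genes were placed on another member of the family was not tested.

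The libraries were then compared gene by gene, which asks whether the animals differed in AI of the complex. Counts at SNPs at least 300 bp apart were used in a two-sided Fisher's exact test with Benjamini-Hochberg adjustment over all autosomal genes. Each test compares 2 libraries, with no replicate, and not conditions. Between E6.43 and E6.2, which share a donor, 0 of 62 genes of the complex had an adjusted p under 0.05, against 0.661% of autosomal genes, and 11 had an unadjusted p under 0.05, against 13% of autosomal genes. The nearest was *Klra10* with 0.591 of 257 counts against 0.723 of 430, a difference of -0.132 (95% interval -0.205 to -0.0587, adjusted p = 0.0549 by Fisher's exact test).

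The comparison of E15.10 with E6.2 called 2 of 61 genes, against 4.76% of autosomal genes. *Gm10069* had 0.667 of 402 counts in E15.10 and 0.552 of 667 in E6.2, a difference of 0.115 (0.0545 to 0.173, adjusted p = 0.00932 by Fisher's exact test). *Klra6*, which encodes Ly49F, had 0.36 of 111 counts in E15.10 and 0.527 of 636 in E6.2, a difference of -0.166 (-0.258 to -0.0659, adjusted p = 0.0341 by Fisher's exact test). In the comparison of E15.10 with E6.43, *Klra6* alone was called, 1 of 61 genes against 4.78% of autosomal genes, with 0.36 against 0.541 of 338 counts and a difference of -0.181 (-0.279 to -0.0742, adjusted p = 0.0282 by Fisher's exact test). The 2 comparisons share the E15.10 library. *Klra6* was thus lower in E15.10 than in either library of donor 6, though no call of the complex was left when the spread between genes of a library was added to the counting error. The share of genes called was below the autosomal share in all 3 comparisons, but above it when all SNPs of a gene were summed, with 9 of 63 genes against 13.8%, 15 of 61 against 18.8% and 14 of 61 against 18.7%, a setting that counts read pairs repeatedly.

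The libraries also differed in how much of their counts fell on the complex. Per 10000 autosomal counts the complex had 32.1 in the E6.2 library, 29.7 in that of E6.43 and 16.9 in that of E15.10, although all autosomal counts were 18906729, 12671054 and 10624832. The median count per covered SNP was 72, 46 and 15 in the complex and 72, 51 and 34 over the autosomes. Relative to E6.2, the share of the complex was 0.528 in E15.10 and 0.926 in E6.43. It was lower in E15.10 for 53 of 61 genes and in E6.43 for 41 of 61. With 1 library per animal this has no replicate error.

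The lower depth of E15.10 was most marked in the Ly49 and CD94/NKG2 families. The median log2 ratio of the shares, E15.10 over E6.2, was -2.21 in the Ly49 family, -1.95 in the CD94/NKG2 family, -1.64 in the myeloid lectins, -0.99 in the *Klrb1*/*Clec2* family and -0.59 in the other genes. Genes with a higher share in E15.10 than in E6.2 and at least 90 counts in E6.2 included *Foxm1*, a cell cycle transcription factor, *Tulp3*, *Rhno1* and *Nrip2*, at log2 ratios of 0.6, 0.76, 0.57 and 0.46. These genes lie at the proximal end of the interval, outside the receptor families.

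GC content moved with these ratios. It was a median of 41.9% around the SNPs of the complex, 37.2% in the Ly49 family and 36.2% in the CD94/NKG2 family, against 47% in the other genes of the interval and 47.5% over the autosomes. Among SNPs with 30 to 35% GC, the share of E15.10 over that of E6.2 was 0.249 in the complex and 0.441 over the autosomes. At 35 to 40% it was 0.301 and 0.49, at 40 to 45% 0.473 and 0.603, at 45 to 50% 0.641 and 0.791, and at 50 to 60% 1 and 1.27. The ratio rose with GC in both, and at each GC content it was lower in the complex.

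**Figure D5:**
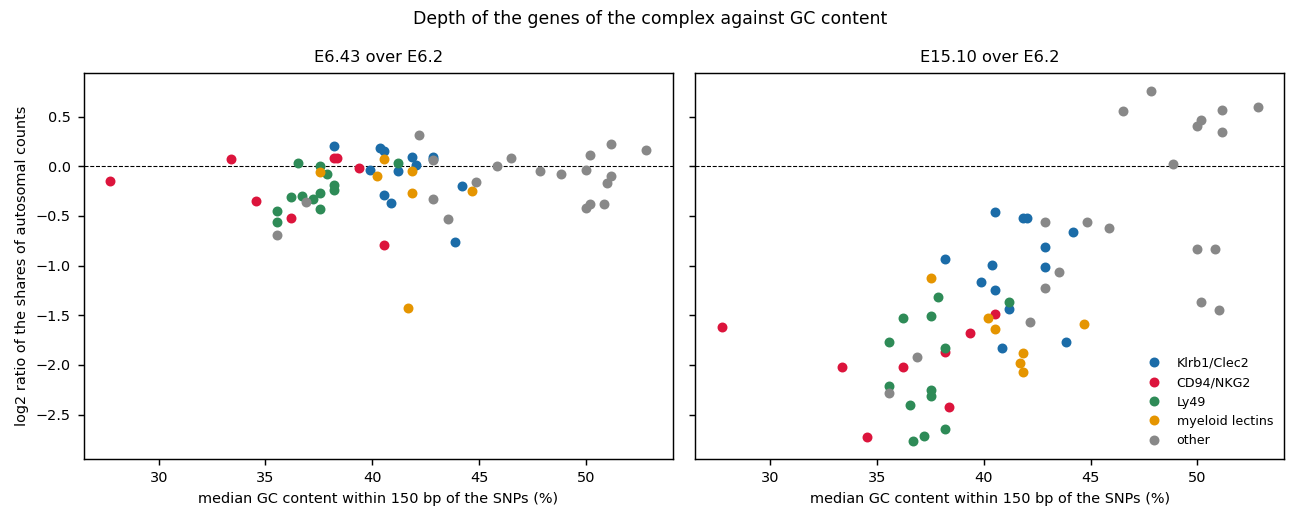
Log2 ratio of each gene's share of autosomal counts (vertical axis) against the median GC content within 150 bp of its SNPs (horizontal axis, percent), for E6.43 over E6.2 and E15.10 over E6.2, with 1 point per gene of at least 90 counts in E6.2, coloured by family. In E15.10 the genes of the Ly49 and CD94/NKG2 families, at low GC, have the lowest ratios, with medians of -2.21 and -1.95.

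The listed SNPs were unevenly covered. Of the 1454 SNPs, 628 (43.2%) had no count in any library, close to the 44.6% of autosomal SNPs. In coding sequence these were 3.03% of SNPs, in noncoding exons 46.6% and in UTRs 65.2%. The Ly49 family had 19 of 178 SNPs without counts and the myeloid lectins 201 of 287, and the SNPs of the latter lay mostly in UTRs and noncoding exons. The AI of the myeloid lectins thus rests on a smaller part of their listed SNPs than that of the Ly49 genes.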

How the data were processed

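Exome libraries of 3 animals were used, 1 per group, with groups from the sample titles. The authors used ASEReadCounter* on the aligned reads and deposited allelic counts per gene and per SNP for each library. The submitters' processing notes name cutadapt 1.14, Trim Galore, STAR 2.5.4a, SAMtools, GATK, GRCm38 and mm10 without their roles. The methods base the exome alignment and counts on that pipeline, which they describe for RNA-seq with STAR, a B6 reference and an imputed CAST genome, and uniquely aligned reads only. Whether the exome settings were the same, and how duplicate reads were treated, is not given in the sources used here. Unique alignment can drop reads at near copies, and reads that align better to B6 would raise AI. A further table holds the authors' own comparisons (AI, p-values and calls) and was not used, and columns of no library numbered 0. The interval held 60681, 37655 and 17995 counts for E6.2, E6.43 and E15.10, respectively, and intervals at 95% confidence cover counting error only, without molecular identifiers.

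Genes needed at least 10 counts and single SNPs at least 20. Fisher's exact test used the counts at SNPs at least 300 bp apart, chosen by coverage, and was tested on simulated data. Windows of 101 bp were compared with the GRCm38.p6 reference by BLAST 2.17.0 (word 28, identity at least 80%, at least 90% of the window). Gene positions came from the annotation of that build. Analyses used Python 3.11.15, SciPy 1.17.1, pandas 2.3.3 and NumPy 2.4.6, and figures matplotlib 3.10.9.

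The members, lists and tests were chosen with earlier results of these data known. The named genes comprised the 3 receptor families, *Cd69*, other genes in the LOH range with at least 90 counts or called by a test, and the 5 most counted others. The further genes named, the stretches with few CAST counts, SNP density, similar places and GC bins were chosen after values were seen. Alternatives were other count minimums, SNP sets, gene values and thresholds.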

Additional observations from a re-analysis of the deposited data

How the results depend on the processing

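No paired analysis was possible because each group holds 1 library. AI of the complex stayed above 0.5 under every alternative, and SNPs with at least 20 counts moved it by less than its interval. At SNPs at least 300 bp apart AI was 0.568, 0.562 and 0.559 for E6.2, E6.43 and E15.10, respectively, as the median of genes 0.554, 0.577 and 0.545, and without *Klra* genes 0.5995 in E6.2. The autosomes leaned to B6 too, with a median gene AI of 0.5375, 0.5385 and 0.537 in the same order. By the median of genes E15.10 thus lay close to the autosomes. No autosomal value at SNPs 300 bp apart is given here. Genes in the LOH range numbered 2, 0 and 1 at SNPs 300 bp apart, 13, 9 and 12 by the median AI of a gene's SNPs, 3 and 3 in E6.2 and E6.43 with limits 0.25 from the library median, 3 and 3 from SNPs with fewer than 3 others within 75 bp, and 1 in E15.10 at 90 counts. SNPs in the LOH range numbered 35, 26 and 15 at 300 bp, 79, 46 and 1 at 50 counts, 88 in E15.10 at 10 counts, 53, 40 and 22 with fewer than 3 others within 75 bp, and 61 and 43 in E6.2 and E6.43 without a similar place. These settings also change how many genes or SNPs are measured, so a lower count need not be a lower share. The 61 and 43 were of 402 and 354 SNPs. Autosomal shares of the LOH range under these settings are not given here. The settings on SNP density and similar places were chosen after seeing the data. The complex held 28.2, 26 and 15 per 10000 autosomal counts at 300 bp, and 557, 530.5 and 362 per 10000 counts of chromosome 6. Fisher's exact test called 9 genes between E6.43 and E6.2, 15 between E15.10 and E6.2 and 14 between E15.10 and E6.43 with all SNPs summed, against 13.8%, 18.8% and 18.7% of autosomal genes. For both E15.10 comparisons it called 0 with overdispersion, and at an adjusted p under 0.01 1 and 0 genes. Causes were not tested. E15.10 had the lowest depth in the complex, a median of 15 counts per covered SNP.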
